A study of Mus musculus with 2 samples.

Results

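The nuclear pore and nuclear transport receptor genes were examined in nuclear RNA of mouse macrophages. They were taken by symbol: every Nup gene with a number, Tpr, the Ranbp genes, the importins (Kpna, Kpnb1, Ipo and Tnpo1 to Tnpo3), the exportins (Xpo) and the mRNA export receptor pair Nxf1 and Nxt1. Of 55536 annotated genes, 54 carried such a symbol, and all of them are among the 22028 protein-coding genes. By role, 23 belong to the pore (Ranbp2 and Tpr counted there), 17 are importins, 6 are exportins, 2 form the mRNA export receptor and 6 are other Ran-binding proteins. The rule reads names only, but members and roles were chosen with earlier results of these data known.

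Bone marrow derived macrophages of strain C57BL/6J had received Lipid A at 100 ng/ml for 10 min, and ribosomal RNA was removed before total RNA of a nuclear fraction was sequenced. Lipid A is the part of bacterial lipopolysaccharide that Toll-like receptor 4 recognises. One label field calls the fraction nucleoplasmic and others call it nucleus or nuclear. The 2 libraries form 1 group. Replicate 1 was made from 1 µg and replicate 2 from 500 ng of RNA, from separate biosamples of the same donor identifier. The labels do not say whether these are separate animals, and part of the library spread may be technical. All cells had received Lipid A. Without untreated cells or further times, which were not analysed here, none of these levels measures a response.

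The nuclear pore is a ring of nucleoporins set into the nuclear envelope. An outer and an inner ring form its scaffold, a central channel of phenylalanine-glycine repeat proteins sorts the traffic, filaments reach into the cytoplasm and a basket reaches into the nucleus. Importins carry proteins inward and let go of them when they meet Ran loaded with GTP, whereas exportins bind cargo together with Ran-GTP and release it in the cytoplasm. Bulk mRNA leaves by another route, on Nxf1 bound to Nxt1, which needs no Ran. In macrophages the same gates admit NF-kB and interferon regulatory factors and let the new inflammatory transcripts out.

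Expected counts on annotated genes came to 19153465 in replicate 1 and 11622346 in replicate 2, of which 73923 and 48425 lay on the 54 genes. Levels are given per transcript length as TPM. The identity of the cells was checked with a marker list that was chosen with earlier results of these data known. All 8 macrophage markers were detected, between 24.9 and 2309 TPM, and they summed to 3661 TPM in replicate 1 and to 2238 TPM in replicate 2. None of 10 markers of T cells, B cells, neutrophils, fibroblasts, endothelium and erythroid cells was detected, and none passed 1.10 TPM in either library. In a bulk sample, fewer cells expressing a gene and less RNA per cell cannot be told apart.

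The sequences that set the forms of Nxf1 and Nup98 apart are shown first, because the results on both genes turn on them. They are given 5′ to 3′ in mm10 with GENCODE annotation M21. Nxf1 (chromosome 19, 8757073 to 8770922, plus strand) has an annotated transcript, Nxf1-209, that keeps the whole of intron 10 (chr19:8765032-8766796, 1765 bases). The intron begins with GT and ends with AG. Translation reads 241 bases into it and stops at TGA, so Nxf1-209 has 418 codons where the fully spliced Nxf1-201 has 618. In the first line below the capitals are intron sequence, from the end of exon 10 to that stop codon (chr19:8765008-8765275). In the middle line they are the last bases of the intron before exon 11 (chr19:8766779-8766808), and in the last line they are exon 11 joined directly to exon 10.
Nxf1-209, exon 10 into the kept intron: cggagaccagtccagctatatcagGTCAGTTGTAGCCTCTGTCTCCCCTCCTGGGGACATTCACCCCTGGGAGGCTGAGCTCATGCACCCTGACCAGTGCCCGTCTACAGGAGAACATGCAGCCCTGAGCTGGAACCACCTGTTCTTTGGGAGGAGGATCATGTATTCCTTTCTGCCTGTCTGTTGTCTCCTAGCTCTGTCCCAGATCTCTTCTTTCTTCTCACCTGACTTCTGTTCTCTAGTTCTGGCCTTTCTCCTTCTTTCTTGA
Nxf1-209, end of the kept intron into exon 11: CTGTCCCGTTCTTGACAGcgccattcgcga
Nxf1-201, exon 10 spliced to exon 11: gtccagctatatcagCGCCATTCGCGAACG

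Nup98 (chromosome 7, 102119398 to 102210176, minus strand) encodes both Nup98 and Nup96, which are cut from a shared precursor protein, and also Nup98 alone. The annotated transcript of the precursor, Nup98-203, has 1816 codons. Nup98-204 has 984 codons because exon 20 reads on past the splice site for 159 coding bases to a TGA stop codon. In the first line below (chr7:102145395-102145580) the capitals are the bases past the splice site. In the other line they are the start of the next exon of the precursor, which is joined to the same 24 bases.
Nup98-204, exon 20 reading on to its stop codon: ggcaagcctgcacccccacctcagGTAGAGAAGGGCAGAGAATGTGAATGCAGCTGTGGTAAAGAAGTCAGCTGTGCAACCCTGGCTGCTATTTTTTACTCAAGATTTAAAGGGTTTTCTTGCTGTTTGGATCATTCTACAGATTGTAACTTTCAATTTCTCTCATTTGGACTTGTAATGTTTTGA
Nup98-203, exon 20 spliced onward: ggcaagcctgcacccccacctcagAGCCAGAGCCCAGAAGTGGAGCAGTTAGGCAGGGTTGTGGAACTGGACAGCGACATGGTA

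Nearly the whole set was present. Of the 54 genes, 49 were detected, that is, reached 1 TPM in both libraries, against 46.0% of all protein-coding genes. The 5 others were the membrane nucleoporin Nup210 and its relative Nup210l, the Nup62 relative Nup62cl, Kpna7, an importin alpha known from oocytes, and Ranbp17. Nup62cl and Kpna7 had no count in either library. With 3 counts as the limit that a count of 0 allows, Nup62cl may reach 0.213 TPM in replicate 1, against 0.323 TPM in replicate 2. Kpna7 may reach 0.12 and 0.185 TPM. Ranbp17 had 3 counts in replicate 1 and none in replicate 2. Together the 54 genes held 0.317% of protein-coding TPM in replicate 1 and 0.333% in replicate 2.

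Importins stood above the pore and the exportins. The median importin was at 16.3 ± 0.495 TPM, the median exportin at 9.22 ± 0.202 TPM and the median pore gene at 8.71 ± 0.693 TPM (SD of the library medians, n = 2). Each centre is the median over genes of their mean TPM, so it can lie outside the 2 library medians. The importin median was the highest in each library, at 15.5 TPM in replicate 1 and 16.2 TPM in replicate 2. Exportin and pore medians lay within their spread of each other: they were 9.41 and 8.71 TPM in replicate 1, and 9.70 and 9.69 TPM in replicate 2. The median of all detected protein-coding genes was 10.5 TPM, and 28 of the 54 genes lay above it. With transcripts of at least 1000 bases only, the medians were 10.9 TPM for importins, 9.11 TPM for exportins and 5.69 TPM for the pore. Genes are not replicates of a condition, so the medians describe these groups and carry no test.

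**Figure D1:**
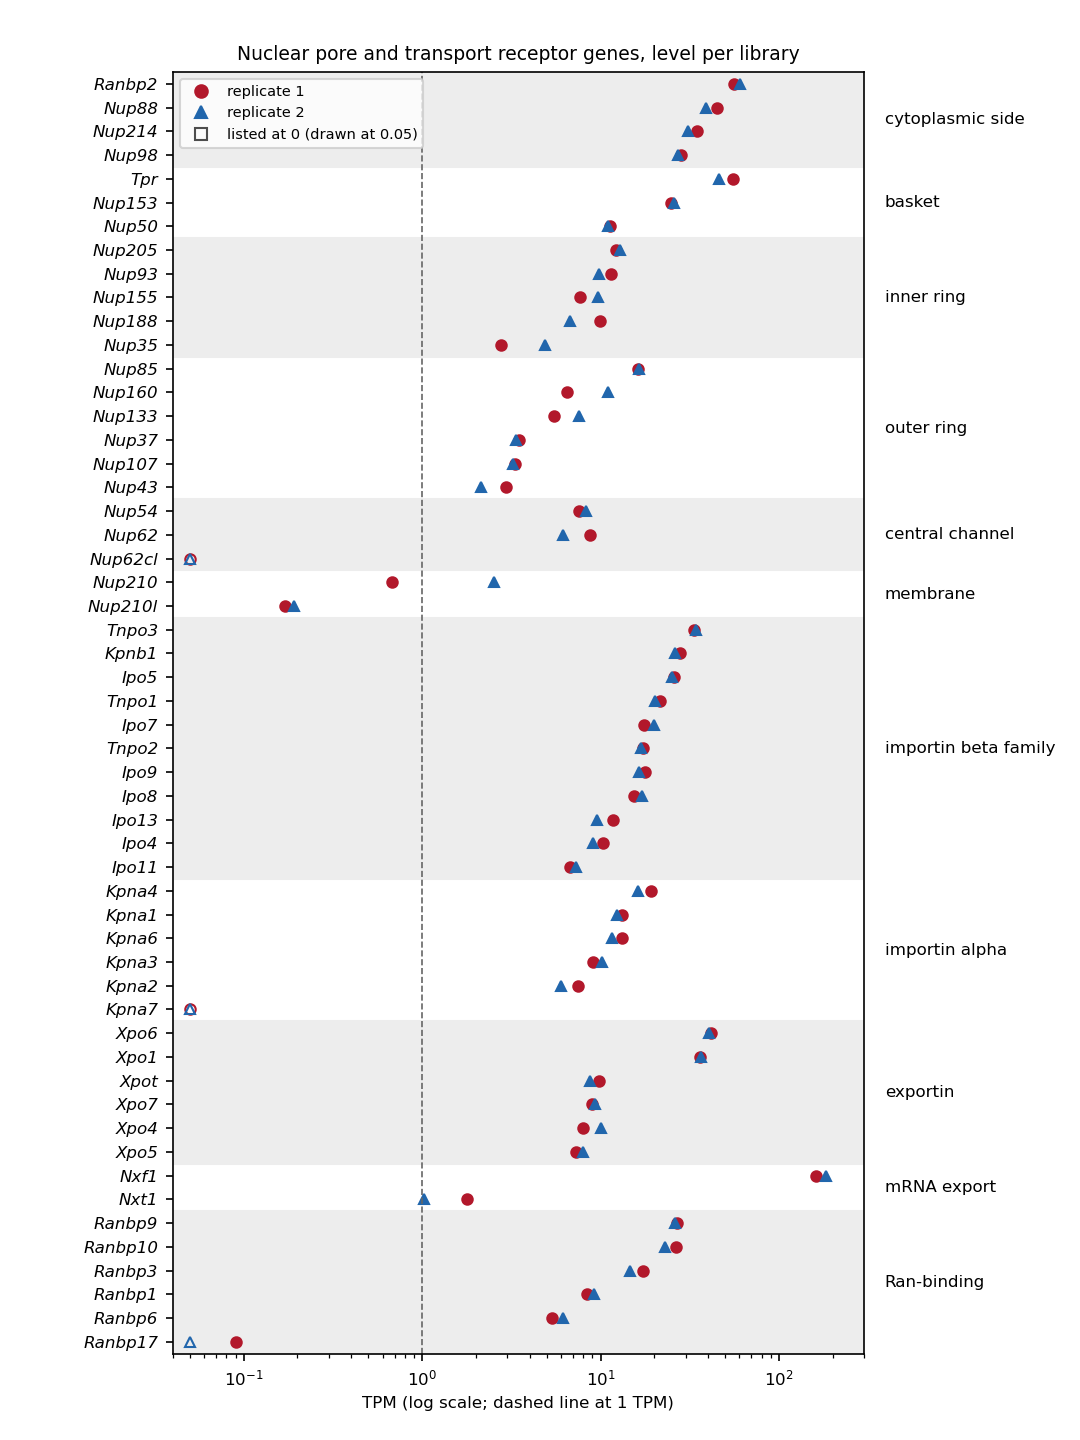
TPM of each of the 54 genes in replicate 1 (circles) and replicate 2 (triangles) on a log axis, grouped by role, with open symbols for genes listed at 0. Nxf1 lies farthest to the right at 161 and 184 TPM, and the cytoplasmic side genes, Tpr and Nup153 lie to the right of the ring genes shown.

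Among the matched pore genes, levels differed by position. The 4 genes of the cytoplasmic side had a median of 37.4 TPM and the 3 basket genes one of 25.3 TPM, whereas the medians were 8.71 TPM for the 5 inner ring genes, 4.98 TPM for the 6 outer ring genes and 7.44 TPM for the 3 central channel genes, Nup62cl among them. Each of these 4 cytoplasmic side genes was above every matched ring gene in both libraries. Of the basket genes Tpr and Nup153 were too, while Nup50 overlapped the rings. The order covers matched genes only. Gle1 (7.23 and 8.23 TPM), Rae1 (13.3 and 13.8 TPM) and Aaas (4.36 and 11.0 TPM), also found on the cytoplasmic side, were not matched. They lay below the outer ring gene Nup85 in both libraries. With transcripts of at least 1000 bases only, Nup153 had 11.2 and 11.1 TPM, below the inner ring gene Nup205 at 12.3 and 12.9 TPM.

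On the cytoplasmic side, Ranbp2, the giant filament protein that binds Ran and acts as a SUMO ligase, had 56.0 TPM in replicate 1 and 60.6 TPM in replicate 2. It was the second highest of all 54 genes. Nup88, which anchors the export platform there, had 44.9 and 39.1 TPM. Nup214, its partner and a docking site for Xpo1, had 34.9 and 30.9 TPM. Nup98, found on both faces of the pore, had 28.2 and 27.3 TPM. In the basket, Tpr, the coiled-coil protein of its struts, had 55.4 and 46.4 TPM. Nup153, which ties the basket to the ring and binds importins, had 24.9 and 25.7 TPM, and Nup50, which helps importin alpha let go of cargo, had 11.3 and 11.0 TPM. For each of these 7 genes the libraries lay within 2-fold of each other.

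The matched scaffold genes had lower medians. They spanned 3.30-fold in the inner ring and 6.40-fold in the outer ring, against 2.10-fold on the cytoplasmic side and 4.56-fold in the basket. Nup98, whose precursor also yields the outer ring protein Nup96, was counted on the cytoplasmic side only. In the inner ring, Nup205 had 12.3 and 12.9 TPM and Nup93, the hub that other inner ring proteins bind, had 11.4 and 9.84 TPM. Nup155 had 7.72 and 9.69 TPM, Nup188 had 9.88 and 6.70 TPM, and Nup35 had 2.75 and 4.87 TPM. Among the matched genes of the outer ring, the Y-shaped complex that coats the envelope, Nup85 was highest at 16.1 and 16.5 TPM. Sec13 (23.7 and 17.2 TPM), Ahctf1 (12.4 and 12.9 TPM) and Seh1l (8.54 and 7.59 TPM), also of this complex, were not matched. Transcripts under 1000 bases held 69.3% and 77.9% of the level of Nup85, and its longer ones had 4.96 and 3.64 TPM. Nup160 followed at 6.51 and 11.1 TPM, with 4.16 and 5.27 TPM in longer transcripts, so that without the short ones Nup85 was the higher of the pair in replicate 1 and the lower in replicate 2. Nup133 had 5.46 and 7.61 TPM. The other members lay lower still: Nup37 had 3.48 and 3.37 TPM, Nup107 had 3.30 and 3.23 TPM, and Nup43 had 2.95 and 2.14 TPM. The ring proteins occur in many copies per pore, and these transcript levels say nothing of protein amounts.

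In the central channel, Nup54 had 7.57 and 8.29 TPM and Nup62, whose repeats form the channel's sieve, had 8.71 and 6.17 TPM. Their partner Nup58 was not matched under that symbol and was not analysed here. Nup210, the membrane nucleoporin that is induced during muscle and neural differentiation, had 0.68 TPM in replicate 1 and 2.54 TPM in replicate 2, from 87 and 92 counts. It was on either side of the detection limit, and its relative Nup210l had 0.17 and 0.19 TPM.

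Importins of the beta family, taken by name as Kpnb1, Ipo and Tnpo, bind cargo or an adaptor and pass through the pore. These 11 spanned 4.86-fold, and all were detected. Ranbp6 (5.34 and 6.20 TPM) and Ranbp17 (0.09 and 0 TPM), also of this protein family, were grouped with the Ran-binding genes by symbol. Tnpo3, the receptor of serine/arginine-rich splicing factors, was highest at 33.6 and 34.2 TPM. Kpnb1, importin beta, which carries the classical import complex, had 28.0 and 26.3 TPM. Ipo5, a receptor of ribosomal proteins and histones, had 25.8 and 25.1 TPM, and Tnpo1, the receptor of RNA-binding proteins such as hnRNP A1, had 21.6 and 20.3 TPM. Ipo7 had 17.6 and 19.9 TPM, and Tnpo2 (17.4 and 16.9 TPM), Ipo9 (17.8 and 16.4 TPM) and Ipo8 (15.5 and 17.1 TPM) overlapped each other. Ipo13 (11.7 and 9.53 TPM), Ipo4 (10.3 and 9.12 TPM) and Ipo11 (6.70 and 7.26 TPM) closed the list.

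Importin alpha proteins are the adaptors that read the classical nuclear localisation signal, the type that NF-kB carries. Of 6 genes, 5 were detected. Kpna4 had 19.3 and 16.2 TPM, Kpna1 had 13.3 and 12.4 TPM, Kpna6 had 13.1 and 11.6 TPM, Kpna3 had 9.08 and 10.3 TPM, and Kpna2 had 7.52 and 5.97 TPM. Kpna4 was the highest in both libraries, and Kpna1 and Kpna6 did not differ beyond their spread. Kpna2 is uncertain, because 94.2% of the 31-base words of its leading transcript also occur in other annotated genes, chiefly Gm10184.

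Among the exportins, Xpo6 and Xpo1 stood apart from the other 4 by total level. Xpo6, which removes actin from the nucleus, had 41.5 and 40.6 TPM, and Xpo1, the receptor of leucine-rich export signals, had 36.1 and 36.8 TPM. Protein-coding transcripts held only 18.0% and 20.9% of the TPM of Xpo6, against 71.4% and 79.6% for Xpo1. Xpot, which exports tRNA, had 9.84 and 8.72 TPM. Xpo7, a receptor with a broad range of cargo, had 8.98 and 9.33 TPM, Xpo4 had 8.0 and 10.1 TPM, and Xpo5, the exporter of precursor miRNAs, had 7.27 and 7.98 TPM. Xpot, Xpo7 and Xpo4 overlapped each other, Xpo5 lay just below them, and all 4 were below Xpo1 in both libraries.

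Of the other Ran-binding genes, Ranbp9 and Ranbp10, related scaffolds of a ubiquitin ligase complex, had 26.8 and 26.1 TPM and 26.5 and 23.0 TPM. Ranbp3, a cofactor of Xpo1, had 17.3 and 14.6 TPM. Ranbp1, which helps strip Ran-GTP from receptors, had 8.43 and 9.25 TPM, and Ranbp6 had 5.34 and 6.20 TPM. From a list of 35 further genes of the pathway, also chosen with earlier results known, 32 were detected, with a median of 7.73 TPM. Its highest members were the mRNA export helicase Ddx39b, at 126 and 123 TPM, and the THO complex genes Thoc2, at 56.3 and 62.0 TPM, and Thoc1, at 35.5 and 48.6 TPM. The SUMO protease Senp2 was next, at 24.2 and 25.8 TPM. The lowest, Nxf3 and Nxf7, relatives of Nxf1, had no count.

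Nxf1, the receptor that takes bulk mRNA out of the nucleus, had the highest level of all. It had 161 TPM in replicate 1 and 184 TPM in replicate 2, which was 2.95-fold the level of Ranbp2. It lay at percentile 99.3 of protein-coding genes and made up 16.4% and 18.7% of the TPM of the 54 genes. Its partner Nxt1 had 1.79 and 1.02 TPM, from 30 and 11 counts, although both proteins act as a pair. A part of the Nxf1 level came from annotated fragments: transcripts under 1000 bases held 54.6% and 49.1% of its TPM but 8.12% and 7.86% of its counts. With transcripts of at least 1000 bases only, Nxf1 had 72.8 and 93.5 TPM and was still the highest, at 1.43-fold the level of Ranbp2. In the same measure Xpo6 (36.9 and 38.3 TPM) and Xpo1 (36.1 and 36.8 TPM) came next.

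Most reads assigned to Nxf1 went to the transcript that keeps intron 10. Nxf1-209, shown above, had 44.6 TPM in replicate 1, against 71.0 TPM in replicate 2. It held 68.1% and 78.4% of the gene's counts. The spliced Nxf1-201 had 28.3 and 22.5 TPM, and 23.7% and 13.7% of counts. The form that keeps the intron was thus above the spliced form in both libraries, and by the second quantification too, where it held 34.2% and 48.0% of the gene's TPM against 27.0% and 28.8%. In human cells, intron 10 of this gene is known to hold a constitutive transport element, an RNA structure that binds the NXF1 protein and lets the message leave the nucleus with its intron and encode a short form of the protein. Unspliced precursor RNA that covers intron 10 would be assigned to the same transcript, and its part in the count was not tested. The short Nxf1-203 (431 bases) had 64.0 and 30.0 TPM from 295 and 94.8 counts, and Nxf1-208 (505 bases) had 20.9 and 49.4 TPM, so both fragments varied widely between libraries.

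**Figure D2:**
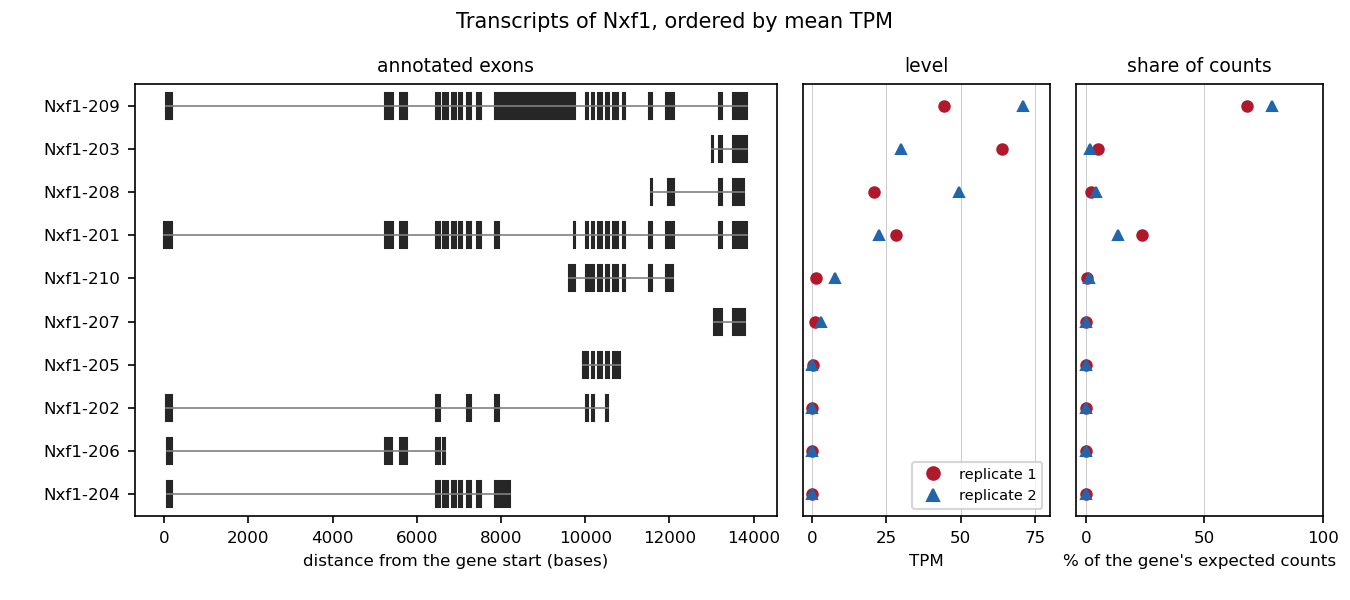
Annotated exons of the Nxf1 transcripts as distance from the gene start in bases (left), their TPM (middle) and their share of the gene's expected counts in percent (right), with replicate 1 as circles and replicate 2 as triangles. Nxf1-209, whose wide exon spans the kept intron, holds 68.1% and 78.4% of counts, and the short Nxf1-203 combines 64.0 and 30.0 TPM with 5.26% and 1.89% of counts.

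At Nup98 the long and short forms were both present. Nup98-203, which encodes the Nup98-Nup96 precursor, had 7.35 TPM in replicate 1, against 6.20 TPM in replicate 2. It held 42.0% and 37.1% of the gene's counts. Nup98-204, which ends in the bases shown above, had 4.03 and 3.86 TPM. Nup98-205, which has 967 codons and whose end was not read here, had 0.72 and 1.27 TPM. Nup98-206 (1170 codons) had 2.30 and 3.15 TPM and Nup98-201 (1187 codons) had 1.37 and 2.21 TPM. The precursor transcript was the highest coding form in both libraries. It was below Nup98-202, a retained intron transcript of 3198 bases, which had 7.64 and 6.65 TPM.

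Retained intron transcripts, a type that the annotation gives to non-coding models with unspliced sequence, held a large share of the TPM of this set. Of 378 annotated transcripts of the 54 genes, 132 are of this type. In the 50 genes whose mean reached 1 TPM they held a median of 28.3% of the gene's TPM, against 15.2% for all protein-coding genes at that level. More of the members have such a transcript annotated, 82.0% against 61.8%. Among genes that have one, the median share was 30.9% of TPM in the members and 32.5% in all protein-coding genes, and 10.5% against 20.0% of counts. In the second quantification the order was the other way, at 41.9% of TPM in the members with such a transcript and 36.6% in all such protein-coding genes. A stricter measure takes transcripts of any type that hold a whole intron of the transcript with the gene's longest coding frame. By that measure the median share was 0 in the 50 members, in TPM and in counts. It was also 0 in all protein-coding genes at that level.

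The share went past 50% of TPM in 5 of the 50 members, against 13.7% of protein-coding genes at that level. Nup88 had 70.8% in replicate 1 and 65.8% in replicate 2, Nup43 had 70.5% and 71.0%, Nup37 had 66.4% and 56.1%, Ipo8 had 62.1% and 61.5%, and Tnpo3 had 53.3% and 47.4%. The 5 retained intron transcripts with the highest levels were Ranbp2-202 (10.7 and 14.8 TPM), Nup98-202, Kpnb1-202 (6.30 and 7.19 TPM), Nup88-206 (8.32 and 4.59 TPM) and Tnpo2-205 (6.66 and 5.82 TPM). They differ in what stands behind them. Tnpo2-205 is 5669 bases long and held 49.8% and 45.4% of the counts of Tnpo2, whereas Kpnb1-202 is 643 bases long and held 2.53% and 3.28% of the counts of Kpnb1. At the other end, 10 of the 50 members had no level in this type, against 39.2% of protein-coding genes at that level. Xpo1, Kpna4, Nup160 and Nup50 were among the 10. Only 41 of the 50 have such a transcript annotated, so most of these zeros were set by the annotation. Xpo1, Kpna4, Nup160 and Nup50 have none annotated. Xpot has one, which held 9.85% and 22.1% of its TPM in the second quantification. By the stricter measure of whole introns, Nup43 had no level in either library, while Xpo1 had 40.7% and 34.5% of its TPM.

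**Figure D3:**
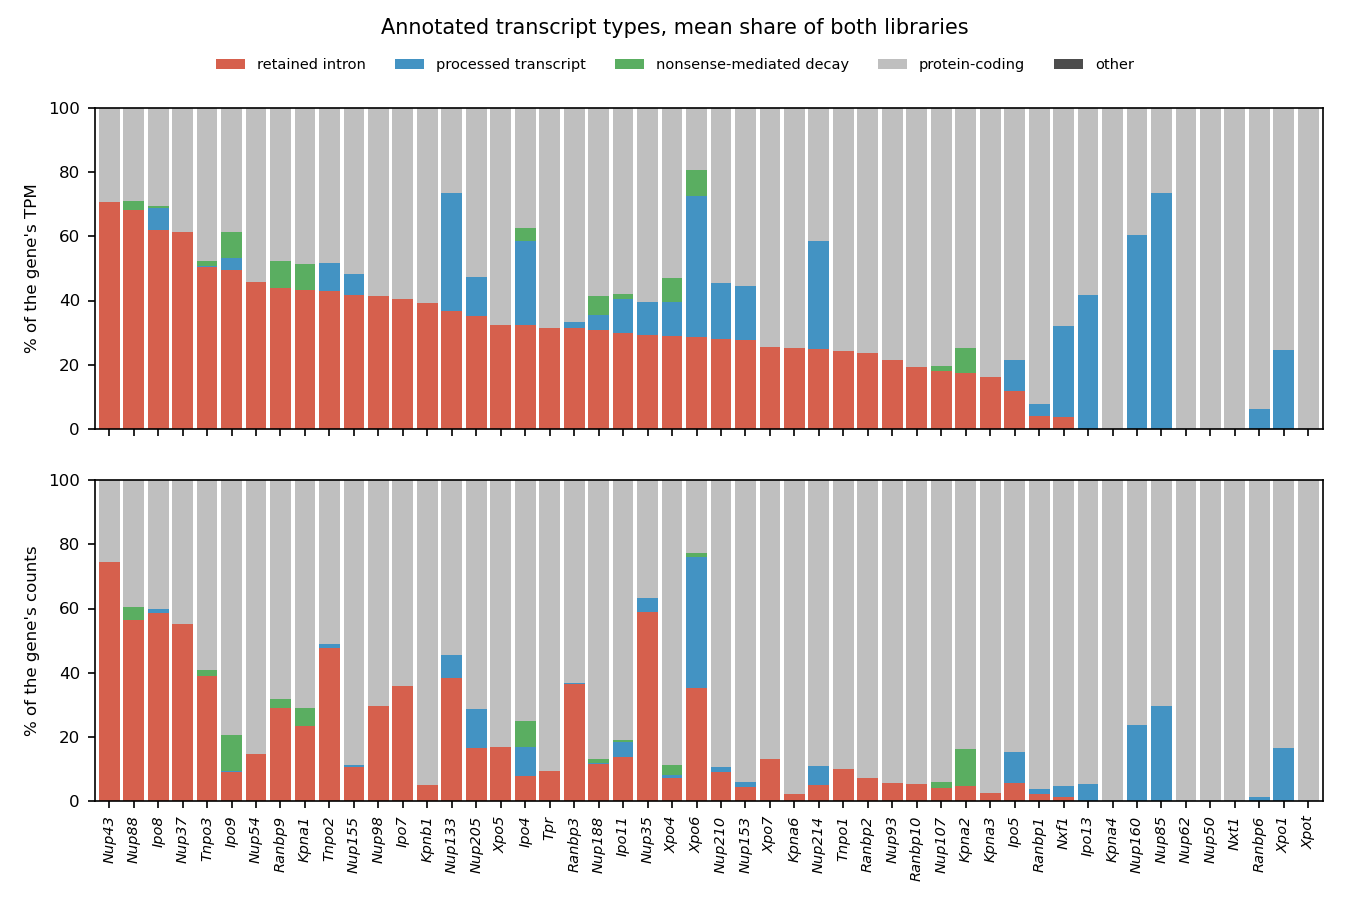
Share of each gene's TPM (top, percent) and of its expected counts (bottom, percent) by annotated transcript type, mean of both libraries, for the 50 genes whose mean reached 1 TPM, ordered by the retained intron share of TPM. Nup43, Nup88, Ipo8 and Nup37 keep a majority in retained intron transcripts by either measure, while Kpnb1 and Ipo9 lose most of that share by counts.

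The transcript with the highest mean TPM was not of the protein-coding type in 5 of the 50 members, against 18.0% of protein-coding genes at that level. In the second quantification it was not of that type in 14 of the 50, against 33.3% of those genes. In the first, the 5 were Nup98-202 and Nup43-204 (1.32 and 1.52 TPM), which are retained intron transcripts, and Nup85-204 (5.13 and 5.62 TPM), Nup133-203 (1.75 and 3.14 TPM) and Xpo6-218 (9.17 and 9.96 TPM), which are processed transcripts without a coding frame. Only Xpo6-218, at 5028 bases with 30.1% and 30.4% of the gene's counts, and Nup43-204, with 61.1% and 77.6%, also led their gene by counts among these 5. The coding transcript of Xpo6, Xpo6-213, had 7.47 and 8.50 TPM, or 18.0% and 20.9% of the gene. At Nup85, by contrast, the coding Nup85-201 held 76.9% and 64.1% of counts.

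The libraries were close for most members. On log2(TPM + 1), replicate 1 over replicate 2 and centred on the median gene, the median difference of the 50 members was -0.07 (0.03 without centring), with 17 higher in replicate 1 and 33 higher in replicate 2, while the median of protein-coding genes was -0.003. The median size of the difference was 0.147 in the members and 0.203 in protein-coding genes. No member was over 2-fold higher in replicate 1, where 2.87% of all genes with a mean of 1 TPM were. In the other direction, 1 member was over 2-fold higher in replicate 2, Nup210, where 1.54% of those genes were. With 1 library on each side there is no test, and the difference covers RNA input, culture and sequencing alike, which cannot be told apart. Other RNAs moved between the libraries too. The nuclear RNA Malat1 had 19912 TPM in replicate 1 against 30438 TPM in replicate 2. Neat1, also nuclear, had 1513 and 1781 TPM. The macrophage genes Lyz2, with 2309 and 1215 TPM, and Cd14, with 168 and 71.5 TPM, went the other way. Their part in the members' differences was not tested.

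The members farthest apart were Nup210 (-1.18), Nup160 (-0.78), Nup35 (-0.75), Nup133 (-0.52) and Xpo4 (-0.40), all higher in replicate 2. Those farthest the other way were Nup188 (0.40), Nxt1 (0.36), Nup62 (0.34), Nup43 (0.23) and Kpna2 (0.19). For Nup160 and Nup188 the leading coding transcript had nearly equal levels in the libraries. At Nup160 the coding Nup160-201 had 3.25 and 3.22 TPM, and at Nup188 the coding Nup188-201 had 4.79 and 4.62 TPM. On TMM-scaled counts the log2 ratio was -0.38 for Nup160 (95% counting interval -0.58 to -0.18) and -0.00 for Nup188 (-0.18 to 0.18). For Nup210 it was -0.83 (-1.26 to -0.39), less than 2-fold.

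Counts placed Nxf1 differently. Its difference was -0.29 in TPM but -0.58 in counts, with a counting interval of -0.64 to -0.53, the second widest gap toward replicate 2 by counts after Nup210. Nxf1-209 had 3825 counts in the deeper replicate 1 and 3932 counts in the shallower replicate 2, while Nxf1-201 had 1333 and 686 counts. Across the 50 members whose mean reached 1 TPM, the counting interval lay above 0 for 3 (Nup62, Kpna2 and Ipo4) and below 0 for 17. Among protein-coding genes at that level it lay above 0 for 22.9% and below 0 for 22.5%. The intervals hold counting error alone: reads carry no molecular identifiers, so they are not independent molecules, and the spread between cultures is left out.

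**Figure D4:**
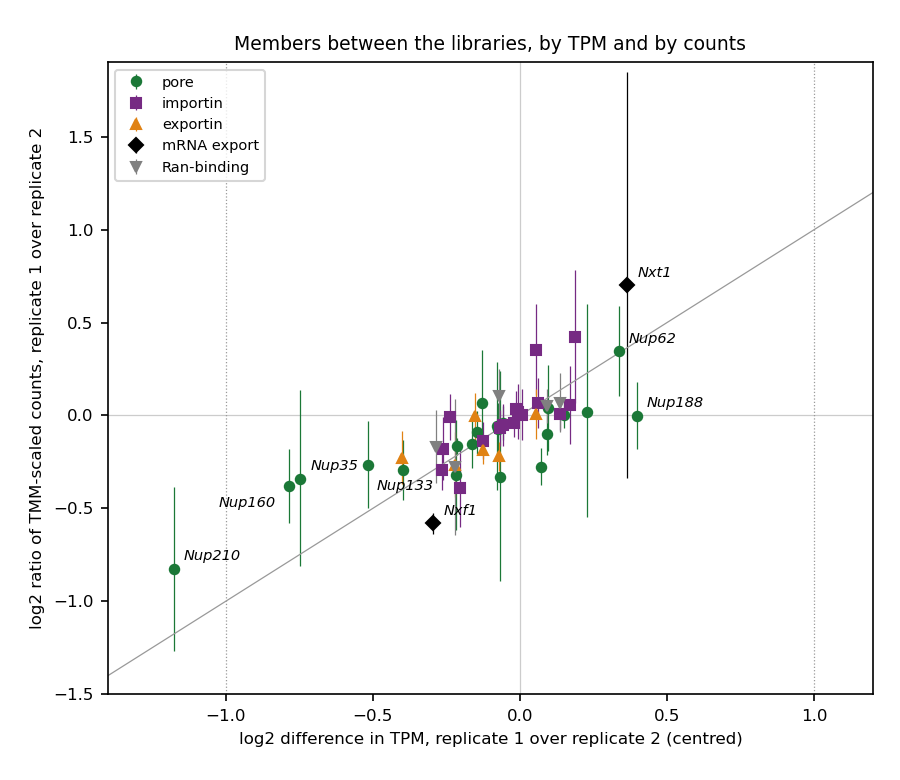
Centred log2 difference in TPM between replicate 1 and replicate 2 (horizontal) against the log2 ratio of TMM-scaled counts with its 95% counting interval (vertical), for members whose mean reached 1 TPM, by group; dotted lines mark 2-fold and the diagonal equal values. Nup210 lies beyond 2-fold at -1.18 in TPM, and Nxf1 lies below the diagonal at -0.58 in counts.

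The order of the groups was the same in the second quantification, with medians of 12.1 TPM for importins, 9.50 TPM for exportins and 8.31 TPM for the pore. It detected 48 of the 54 genes. Relative to the median protein-coding gene, Nxf1 was over 2-fold lower in the second quantification, the only member so placed, where 0.128% of protein-coding genes were. Its difference on log2(TPM + 1) was -1.10, from 47.5 and 78.4 TPM in the second against 161 and 184 TPM in the first. Nup54 was the only member over 2-fold higher (1.25), where 13.3% of protein-coding genes were, with 12.8 and 18.7 TPM in the second against 7.57 and 8.29 TPM in the first. Of the leading transcript of Nup54, 29.4% of 31-base words also occur in Gm15790.

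Next to Nup54, the members farthest up in the second quantification were Nup62 (0.78), Ipo11 (0.74), Kpna6 (0.56) and Nup107 (0.51). Those farthest down after Nxf1 were Ranbp10 (-0.53), Ranbp6 (-0.51), Ranbp2 (-0.43) and Nup88 (-0.43). The same transcript led in both quantifications for 32 of the 50 members. Nxf1 kept the highest level in the second quantification in both libraries.

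**Figure D5:**
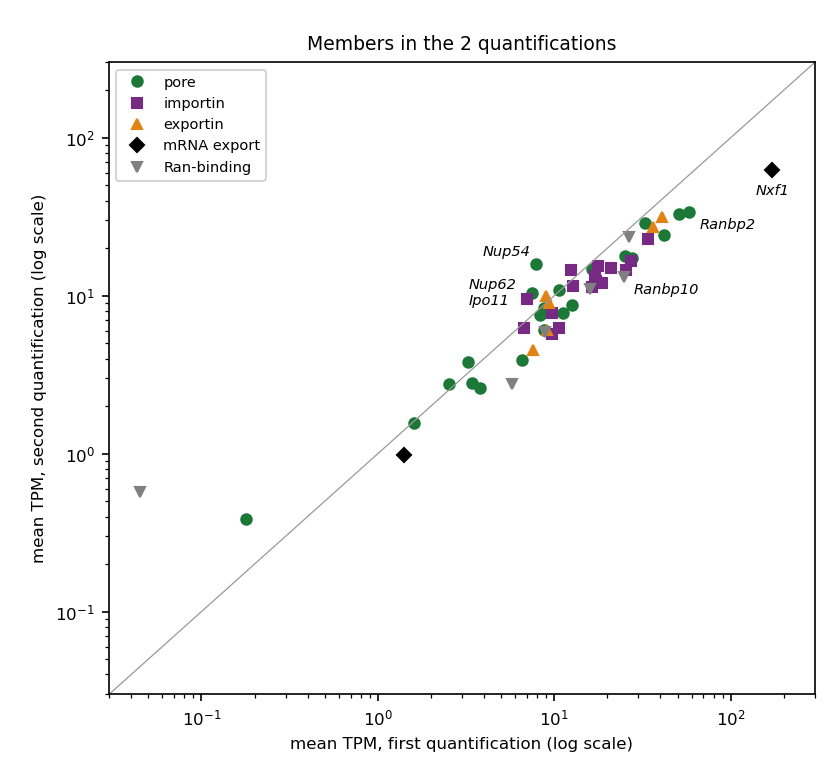
Mean TPM of each member with a level above 0 in both, in the first (horizontal) and second (vertical) quantification on log axes, by group, with the line of equal values. Nxf1 lies farthest below the line, at a log2 difference of -1.10 after centring, and Nup54 lies above it at 1.25.

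Some levels are uncertain because reads can be shared. More than 5% of the 31-base words of the leading transcript occur in another annotated gene for 15 members. The share was 90.4% for the short Nup35-202 (with Gm4353), 59.7% for Ipo4, which overlaps Gm49378 on the same strand, 31.2% for Ranbp1, 23.1% for Xpot (chiefly Gm7389), 18.6% for Tnpo1 (Gm6493) and 14.2% for Ipo5. How strand was handled is not given in the sources used here. Exons of Tnpo3 overlap those of Irf5 on the opposite strand over 411 bases, and those of Ranbp9 overlap Nol7 over 453 bases. Tpr and Odr4, and Nup88 and Rabep1, also overlap on opposite strands. The leading transcripts of Nxf1, Xpo1, Xpo6 and Nup205 share no such word with another gene.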

How the data were processed

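Per the labels and the text deposited beside each table, reads were assigned to mm10 with GENCODE annotation M21. No program is named in the sources used here. The gene and transcript tables that the authors deposited hold expected counts, which are estimates and need not be whole, TPM, FPKM, and the bounds of their TPM intervals (a signal not used for any result). The second quantification is the other transcript table that the authors deposited, with TPM per transcript, summed here per gene identifier; 86 genes had no entry in it.

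Entries naming no annotated gene, 1.18% of counts in replicate 1 and 0.405% in replicate 2, were left out. Detection was 1 TPM in both libraries. Library differences used a pseudocount of 1 TPM and genes with a mean of 1 TPM, centred on their median of 0.10. This scale understates changes of low genes. Rounded counts were scaled by TMM in edgeR 4.0.16 or by DESeq2 1.42.0 size factors (R 4.3.3). Counting intervals are exact Clopper-Pearson intervals of the count ratio at 95%. The difference script was tested on simulated data. Python 3.11.15, numpy 2.4.6, pandas 2.3.3, scipy 1.17.1 and matplotlib 3.10.9 were used. Members, roles, the list of 35 pathway genes and the marker list were chosen with earlier results of these data known. Named between libraries and quantifications were the 5 members farthest apart in each direction. Strand, batch and date are not given there. No test was possible with 1 group.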

Additional observations from a re-analysis of the deposited data

How the results depend on the processing

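The count of 49 detected members stayed within 1.5 times under each alternative, and importins had the highest median of the 3 main groups in each. The pore median of 8.71 TPM was 9.59 with posterior mean TPM, 9.71 over detected members and 10.48 in FPKM, and 8.71 to 9.69 in single libraries. With transcripts of at least 1000 bases only, chosen after seeing the data, it was 5.69 TPM. The importin median of 16.3 TPM was 12.07 in the second quantification, 19.59 in FPKM and 10.85 TPM with those longer transcripts, and 15.5 to 16.2 in single libraries. The exportin median of 9.22 TPM was 9.50 in the second quantification and 11.04 in FPKM, and 9.41 to 9.70 in single libraries. The exportin median was below the pore median with posterior mean TPM and over detected members.

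The median library difference of -0.07 was -0.15 in the second quantification. It reversed to 0.03 without the filter (0.02934) and to 0.03 without centring (0.03114), so its direction is not settled. The 1 member over 2-fold higher in replicate 2 became 0 in the second quantification and on TMM-scaled and DESeq2-scaled counts. The retained intron share of 28.3% was 38.7% in the second quantification and 8.36% of counts. The cause was not tested. No paired analysis was possible because there is 1 group. Depth limits Nxt1, Nup35, Nup37, Nup43 and Nup210, each with under 100 counts in both libraries.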
